A study of Mus musculus with 18 samples.

Results

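The 10 genes described here are Etnppl, Etnk2, Pcyt2, Chka, Pcyt1a, Chpt1, Pemt, Lpin1, Lpin2 and Lpcat3, enzymes of phospholipid metabolism. They are 10 of 24394 gene symbols counted in 18 mouse livers by 3′ tag RNA sequencing, in which reads come from the ends of polyadenylated RNAs. They were picked by symbol, with their CPM (counts divided by the scaled library size) across the 3 groups already known. The differences between groups given for them are therefore a description of the values they were picked on.

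Each group holds 6 livers. The control and the tumour-bearing WT groups come from wild-type (WT) mice without and with a tumour, and the last group from mice with a tumour and the genotype Alb-Cre+/+;Stat3f/f, here named Stat3-deleted. The albumin promoter of Alb-Cre confines Cre mainly to hepatocytes, which then lose a floxed stretch of Stat3, a transcription factor activated by interleukin 6 and related cytokines. The labels name PDA.69, a KPC-derived pancreatic ductal adenocarcinoma line described as T cell low, for all 3 groups, the controls included. They give no age, sex, implantation site or time of day, and Stat3-deleted livers without a tumour were not among the groups, so the deletion is seen only together with a tumour. The WT mice carry no Cre in the labels.

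Phosphatidylcholine and phosphatidylethanolamine are the main phospholipids of liver membranes, bile and secreted lipoproteins. Choline and ethanolamine are phosphorylated by kinases, activated with CTP by cytidylyl-transferases and joined to diacylglycerol, which lipins make from phosphatidate. The liver also turns phosphatidylethanolamine into phosphatidylcholine by methylation, and acyltransferases then exchange the fatty acids of the finished lipids.

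Start-site windows from RefSeq on GRCm38.p6, reaching from 250 bases before to 50 after an annotated start, were found for 9 of the 10 genes (15 windows in all). Pcyt2 had none in that set. Both strands were searched for 4 palindromic motifs: TTCNNNGAA, a spacing bound by STAT dimers; CACGTG, an E-box; ACANNNTGT, half-sites spaced as in glucocorticoid response elements; and TGACGTCA, the full cAMP response element. A motif was present in 2 windows. The first is the upstream Lpin2 window, with CACGTG at position -9 from the start, and the second is the upstream Pemt window, with TTCNNNGAA at position -23. Among 32851 promoter windows of the same length, CACGTG was in 7.15%, TTCNNNGAA in 8.3%, ACANNNTGT in 6.85% and TGACGTCA in 1.79%. The windows with a match are printed 5′ to 3′ with the match in capitals. Beside them are the upstream window of Etnppl and the only window of Lpin1, the genes with the largest group differences. No window of either gene held any of the 4. The Lpin1 and Pemt windows lie inside the gene spans given below, which end at 16653903 for Lpin1 and at 60046561 for Pemt. Both genes are on the minus strand, so their outermost starts were not searched.
Lpin2, chr17:71183282-71183581, plus strand: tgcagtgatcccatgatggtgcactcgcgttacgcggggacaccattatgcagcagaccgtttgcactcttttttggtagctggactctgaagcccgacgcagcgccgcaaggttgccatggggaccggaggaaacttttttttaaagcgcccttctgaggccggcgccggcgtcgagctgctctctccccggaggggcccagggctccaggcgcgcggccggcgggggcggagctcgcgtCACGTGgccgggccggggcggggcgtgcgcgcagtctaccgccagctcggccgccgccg
Pemt, chr11:60040139-60040438, minus strand: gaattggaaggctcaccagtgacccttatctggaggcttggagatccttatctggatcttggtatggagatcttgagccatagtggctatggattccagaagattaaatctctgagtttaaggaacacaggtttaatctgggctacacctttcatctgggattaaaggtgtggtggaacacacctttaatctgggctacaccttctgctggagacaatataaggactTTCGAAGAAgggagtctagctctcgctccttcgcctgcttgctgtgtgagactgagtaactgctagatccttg
Etnppl, chr3:130617198-130617497, plus strand: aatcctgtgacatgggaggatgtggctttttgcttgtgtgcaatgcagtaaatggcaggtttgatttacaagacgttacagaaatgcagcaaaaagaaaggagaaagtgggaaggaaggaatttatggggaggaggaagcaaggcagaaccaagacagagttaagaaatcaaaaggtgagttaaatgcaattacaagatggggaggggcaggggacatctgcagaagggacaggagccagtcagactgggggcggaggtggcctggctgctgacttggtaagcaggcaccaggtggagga
Lpin1, chr12:16610917-16611216, minus strand: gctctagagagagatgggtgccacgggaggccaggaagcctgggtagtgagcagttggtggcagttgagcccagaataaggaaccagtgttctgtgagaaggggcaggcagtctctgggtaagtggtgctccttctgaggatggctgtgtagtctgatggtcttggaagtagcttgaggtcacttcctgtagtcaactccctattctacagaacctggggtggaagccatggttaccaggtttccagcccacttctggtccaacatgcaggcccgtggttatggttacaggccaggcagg
The shortness of the window limits what such a search can hold, and a match in it is a description of the letters.

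Library totals were 5204378 to 7149953 counts for control livers, 6159553 to 8838849 for tumour-bearing WT livers and 7211799 to 9532978 for Stat3-deleted livers. Saa1, which encodes an acute-phase apolipoprotein induced through STAT3, lay between 115 and 559 CPM in controls, between 5490 and 48600 CPM in tumour-bearing WT livers and between 10.7 and 161 CPM in Stat3-deleted livers. Stat3 itself was at 112 ± 19.1, 213 ± 38.3 and 118 ± 12.8 CPM (mean ± SD, n = 6 each). The labels do not say which exons are floxed, and 3′ tags may lie outside them, so the Stat3 level does not check the deletion. Hepatocyte markers (10 of 10 in the table) dominated every liver, with summed levels of 68800 to 98200, 83000 to 183000 and 108000 to 124000 CPM in the same order of groups. Neutrophil markers (7 in the table, 3 tested) had summed levels of 20.6 to 50.6, 68.8 to 340 and 35.1 to 103 CPM. Cholangiocyte markers (5 in the table) summed to 30.6 to 55.3, 43.5 to 148 and 28.4 to 43.7 CPM. Kupffer cell markers (8 in the table) summed to 383 to 995, 671 to 1670 and 656 to 1800 CPM. In none of these 4 lists was a marker at 0 in every liver of a group. B and plasma cell markers (5 in the table, 2 tested) summed to 3.70 to 46.5, 9.48 to 41.5 and 1.93 to 6.78 CPM, with Cd79a at 0 in every control and every Stat3-deleted liver. The 2 tested, Jchain and Mzb1, were called lower in Stat3-deleted livers against both other groups. Their log2 fold changes lay from -2.87 to -1.82 against tumour-bearing WT and from -2.5 to -1.77 against control livers. At such low levels in Stat3-deleted livers they may have passed the filter on expression only through the WT livers, so these calls are a description. The part of these cell types in the values below was not tested, and in whole liver fewer cells of a type and less RNA per cell cannot be told apart.

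One liver, replicate 6 of the tumour-bearing WT group, stood apart from the other 5 of its group in several of the genes below. Fkbp5, a glucocorticoid-responsive gene, was at 221 CPM there against 13 to 29.6 in the others, and Tef, a clock output gene, at 106 against 29.7 to 44.2 CPM. Its Saa1 level, 21700 CPM, lay inside the range of its group. Several of the results that this liver moves are given with and without it, and others only with it.

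In a fit over 11218 genes (edgeR's quasi-likelihood test, adjusted p under 0.05), 0 of the 10 genes were called higher and 1 lower in tumour-bearing WT than in control livers, where 1.76% of all tested genes were called higher and 0.49% lower. In Stat3-deleted against tumour-bearing WT livers 4 were called higher and 0 lower, where 2.89% of all tested genes were called higher and 3.23% lower. In Stat3-deleted against control livers 3 were called higher and 0 lower, where the background was 2.19% and 2.66%. Nothing is read from these counts, since the genes were picked on the same values. The median log2 fold change of the 10 genes was -0.13, 0.25 and 0.06 in the 3 comparisons, beside 0.00, -0.03 and -0.01 for all tested genes. Each pair of these comparisons shares a group of livers. DESeq2 called 0 higher and 2 lower, 3 higher and 0 lower, and 2 higher and 0 lower, and gave no adjusted p for Lpin1. Over all genes its calls grew in every comparison, to 2.76% higher and 1.36% lower, 3.93% and 4.07%, and 3.53% and 4.14%. Those of the 10 genes grew in the first comparison and fell in the other 2. Limma voom called 0 higher and 2 lower, 4 and 0, and 3 and 0, where the shares over all genes were 1.57% and 0.624%, 5.13% and 4.65%, and 5.41% and 6.34%. Without tumour-bearing WT replicate 6 edgeR called 0 higher and 2 lower, 4 and 0, and 3 and 0, where the shares over all genes were 1.43% and 0.382%, 4.18% and 3.86%, and 3.18% and 3.77%.

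**Figure D1:**
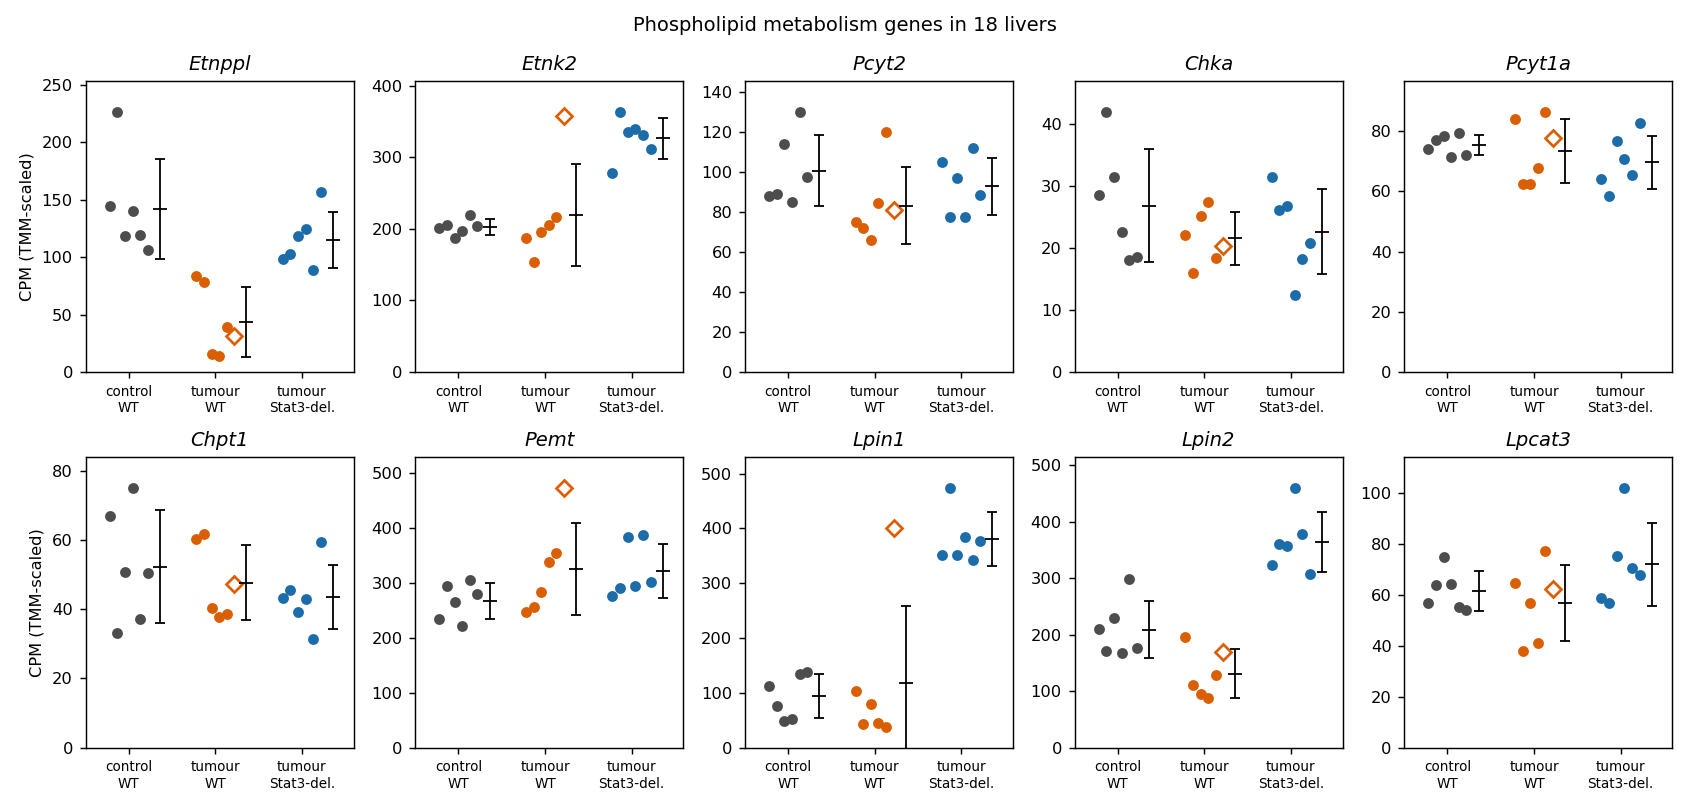
CPM of the 10 phospholipid genes in each liver (y axis, from 0), by group (x axis). Each point is 1 liver, the open diamond is replicate 6 of the tumour-bearing WT group, and bars show mean ± SD (n = 6), cut at 0 where they would pass below it. Etnppl was lowest in the tumour-bearing WT group, while Lpin1, Lpin2 and Etnk2 were highest in the Stat3-deleted group on average.

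Etnppl (GRCm38.p6 chromosome 3, 130617448 to 130635750) encodes ethanolamine-phosphate phospho-lyase, which breaks phosphoethanolamine down and so takes it out of the path to phosphatidylethanolamine. In replicate order, control livers held 144, 226, 118, 140, 119 and 106 CPM. Tumour-bearing WT livers held 83.2, 77.9, 15.3, 14.3, 38.9 and 31.2 CPM. Stat3-deleted livers held 98.6, 103, 118, 124, 89.1 and 157 CPM. Every tumour-bearing WT liver lay below every liver of the other 2 groups, and the control and Stat3-deleted livers overlapped. The spread was widest in the tumour-bearing WT group, with a coefficient of variation of 69.6% against 30.5% in control and 21.2% in Stat3-deleted livers. The log2 fold change was -1.71 (SE 0.34) in tumour-bearing WT against control livers and 1.41 (SE 0.34) in Stat3-deleted against tumour-bearing WT livers, and both were called. It was -0.31 (SE 0.33) in Stat3-deleted against control livers, not called, with a 95% interval from -0.98 to 0.37. Leaving out each of the 18 libraries in turn ended neither call, and the first log2 fold change then ran from -2.001 to -1.534 and the second from 1.229 to 1.696.

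The livers of both WT groups carry label numbers in a lower and a higher run, 3 livers of each group in each, while all Stat3-deleted livers carry a run of their own, so that run and genotype cannot be told apart. In the lower run alone (3 against 3 livers) the log2 fold change of Etnppl in tumour-bearing WT against control livers was -1.48 and was not called. In the higher run alone it was -2.12 and was called. The direction was the same in both runs.

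Etnk2 (chromosome 1, 133363463 to 133380318) encodes an ethanolamine kinase of the liver, the enzyme that makes the phosphoethanolamine that Etnppl breaks down. Control livers were tightly grouped at 201, 206, 187, 197, 220 and 204 CPM, a coefficient of variation of 5.32%. Tumour-bearing WT livers held 187, 154, 195, 206, 216 and 358 CPM. Stat3-deleted livers held 278, 363, 336, 340, 331 and 312 CPM. All Stat3-deleted livers lay above all control livers and above 5 of the 6 tumour-bearing WT livers, the exception being replicate 6. The log2 fold change was 0.69 (SE 0.15) in Stat3-deleted against control livers, called in every fit that left 1 library out. Against tumour-bearing WT livers it was 0.58 (SE 0.15), called with all libraries and lost in 6 of 18 fits, namely without replicate 1, 2, 3 or 4 of the tumour-bearing WT group or replicate 2 or 3 of the Stat3-deleted group. It was also lost when the 2 groups were fitted alone. It was 0.78 without tumour-bearing WT replicate 6. Tumour-bearing WT and control livers differed by 0.11 (SE 0.15), not called, a value that was -0.09 without replicate 6 and -0.12 with library totals alone.

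Pcyt2 (chromosome 11, 120610062 to 120617947) encodes the cytidylyl-transferase that activates phosphoethanolamine. Its levels were 101 ± 18 CPM in control livers, 83.2 ± 19.3 CPM in tumour-bearing WT livers and 92.9 ± 14.3 CPM in Stat3-deleted livers (mean ± SD, n = 6 each), and the ranges overlapped in every comparison. Its log2 fold changes were -0.28 (SE 0.15), 0.16 (SE 0.15) and -0.12 (SE 0.15), none called. Pcyt2 lies 19.67 Mb from Stat3 on the same chromosome, and Pemt lies 40.84 Mb from it.

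No gene of the choline branch stood apart in any group. Chka, the choline kinase of the first step, was at 26.8 ± 9.13, 21.6 ± 4.25 and 22.6 ± 6.82 CPM in control, tumour-bearing WT and Stat3-deleted livers. Pcyt1a, the cytidylyl-transferase that sets the pace of the branch, was at 75.4 ± 3.31, 73.5 ± 10.7 and 69.7 ± 8.87 CPM. Chpt1, which joins the activated choline to diacylglycerol, was at 52.2 ± 16.3, 47.6 ± 10.9 and 43.6 ± 9.23 CPM. None of the 3 was called in any comparison, and their groups overlapped throughout. The 95% intervals of the log2 fold change in Stat3-deleted against control livers were -0.70 to 0.21 for Chka, -0.36 to 0.14 for Pcyt1a and -0.67 to 0.14 for Chpt1, so changes up to those sizes remain possible. The last 1000 bases of Pcyt1a overlap Slc51a on the opposite strand, and as the strand setting of the counting is not given in the sources used here, reads of the pair cannot be told apart.

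Pemt (chromosome 11, 59970614 to 60046561), whose upstream window is printed above, encodes the enzyme that methylates phosphatidylethanolamine to phosphatidylcholine. Control livers held 235, 294, 266, 222, 305 and 280 CPM. Tumour-bearing WT livers held 248, 256, 284, 339, 354 and 473 CPM, with replicate 6 again the highest. Stat3-deleted livers held 277, 290, 383, 294, 387 and 301 CPM. The groups overlapped in every comparison. The log2 fold changes were 0.29 (SE 0.15) in tumour-bearing WT against control, -0.02 (SE 0.15) in Stat3-deleted against tumour-bearing WT and 0.27 (SE 0.15) in Stat3-deleted against control livers, none called. The second turned to 0.09 with library totals alone and to 0.12 without tumour-bearing WT replicate 6.

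Lpin1 (chromosome 12, 16535669 to 16653903) encodes lipin 1, a phosphatidate phosphatase that makes diacylglycerol and is also known as a nuclear partner of PGC-1α and PPARα in fasting liver. Control livers held 112, 75.7, 49.6, 52.4, 135 and 138 CPM. Tumour-bearing WT livers held 103, 44.0, 80.1, 44.6, 38.0 and 400 CPM. Stat3-deleted livers held 351, 474, 352, 385, 342 and 378 CPM. The Stat3-deleted livers lay above all control livers and above all tumour-bearing WT livers except replicate 6, which reached their range. The Stat3-deleted livers also varied least, with a coefficient of variation of 12.8% against 42.7% in control and 119% in tumour-bearing WT livers. The log2 fold change in Stat3-deleted against control livers was 2.02 (SE 0.45), called in every fit that left 1 library out.

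Against tumour-bearing WT livers the log2 fold change of Lpin1 was 1.69 (SE 0.44), called with all libraries. That call was lost in 4 of 18 fits, namely without replicate 2, 3 or 4 of the tumour-bearing WT group or replicate 2 of the Stat3-deleted group. Without tumour-bearing WT replicate 6 the value was 2.63 and was called. In tumour-bearing WT against control livers Lpin1 differed by 0.33 (SE 0.44), not called, and the sign rested on that liver: without it the value was -0.61, also not called.

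Lpin2 (chromosome 17, 71183532 to 71249818) encodes lipin 2, the other phosphatidate phosphatase abundant in liver, and its upstream window with the E-box is printed above. Control livers held 211, 172, 229, 167, 299 and 177 CPM. Tumour-bearing WT livers held 196, 111, 95.1, 88.9, 128 and 169 CPM. Stat3-deleted livers held 323, 360, 358, 460, 379 and 308 CPM. Every Stat3-deleted liver was above every other liver, while the control and tumour-bearing WT groups overlapped. Replicate 6 of the tumour-bearing WT group, at 169 CPM, was within the range of its group for Lpin2, unlike for Lpin1. The log2 fold change was 1.48 (SE 0.19) in Stat3-deleted against tumour-bearing WT livers, called in every fit that left 1 library out. It was 0.80 (SE 0.19) against control livers, called with all libraries and lost without control replicate 4. In tumour-bearing WT against control livers it was -0.67 (SE 0.19), with all 6 tumour-bearing livers below the control mean, and it was not called by edgeR but was called by DESeq2 at -0.68 and by limma voom at -0.71. A long noncoding gene, Gm26561, overlaps the last 1000 bases of Lpin2 on the same strand and has no row in the table.

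Lpcat3 encodes the acyltransferase that loads polyunsaturated fatty acids onto lysophosphatidylcholine. It was at 61.5 ± 7.83, 56.7 ± 14.8 and 71.9 ± 16.2 CPM in control, tumour-bearing WT and Stat3-deleted livers, and was not called in any comparison. All 6 Stat3-deleted livers were above the tumour-bearing WT mean of log2 CPM, with a log2 fold change of 0.34 (SE 0.17) and overlapping groups. Its last 1000 bases overlap Emg1 on the opposite strand.

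**Figure D2:**
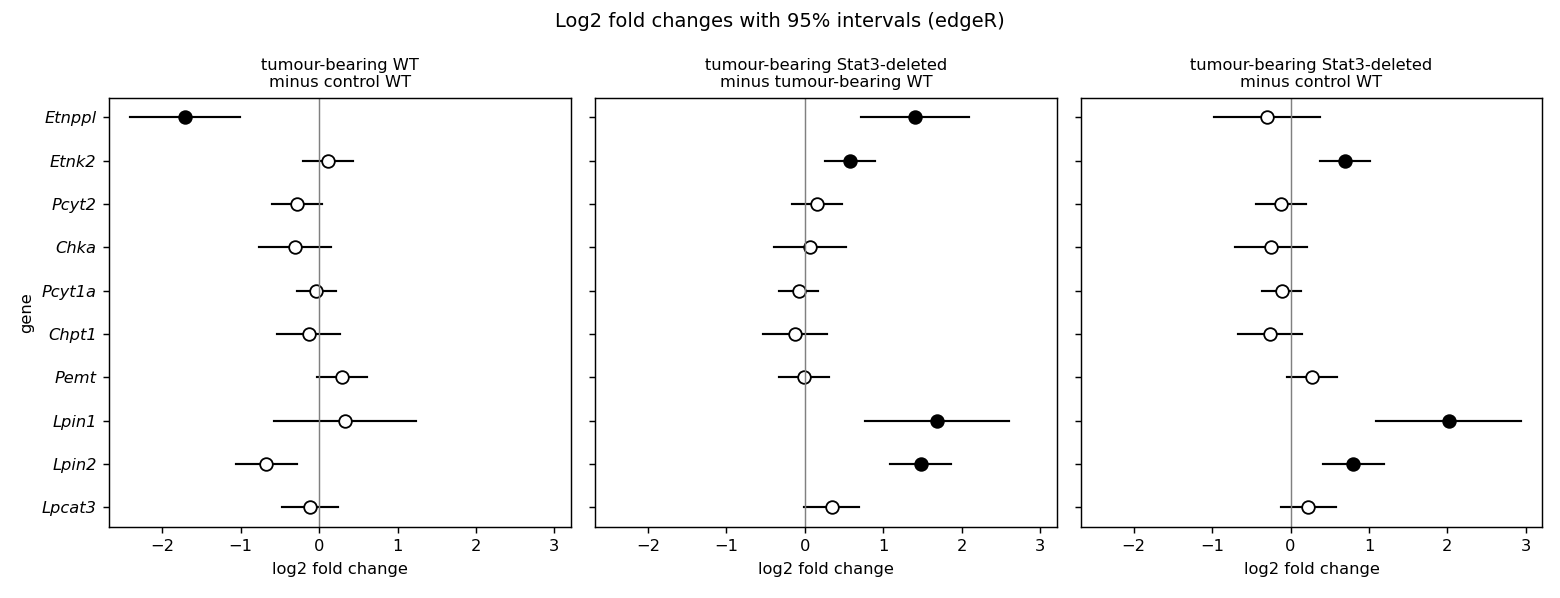
Log2 fold change (x axis) of the 10 genes (y axis) in the 3 comparisons, with 95% intervals derived from the F statistic of edgeR's test. Filled points were called at an adjusted p under 0.05. Etnppl lies at -1.71 in the first panel and 1.41 in the second, Lpin1 at 1.69 and 2.02 in the other panels.

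By group order, then, Etnppl was lowest in tumour-bearing WT livers with control and Stat3-deleted livers overlapping. Lpin2 was highest in Stat3-deleted livers with the 2 WT groups overlapping. Lpin1 and Etnk2 were highest in Stat3-deleted livers on average, and the 2 WT groups could not be ordered beyond their spread. The other 6 genes had overlapping groups in all 3 comparisons. How often groups overlap among all tested genes is not given here, so nothing is read from that number.

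**Figure D3:**
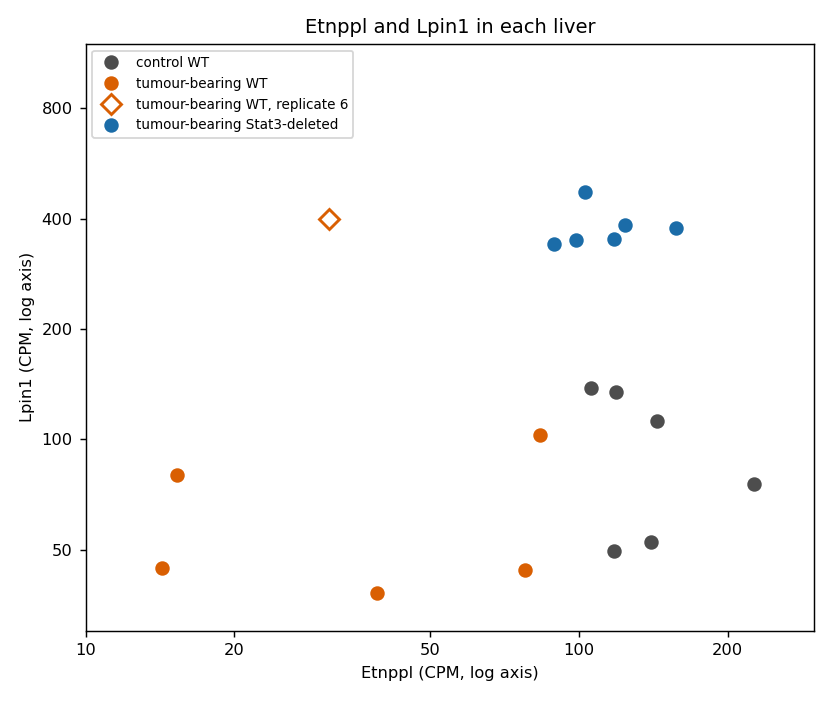
Lpin1 against Etnppl in each of the 18 livers, in CPM on log axes, with 1 point a liver. Stat3-deleted livers hold 342 to 474 CPM of Lpin1 and 89.1 to 157 CPM of Etnppl, and replicate 6 of the tumour-bearing WT group (open diamond) has 400 CPM of Lpin1 with 31.2 CPM of Etnppl.

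No relation between Etnppl and Lpin1 from liver to liver passed a test. Within groups their Pearson r was -0.26 in control (exact permutation p = 0.694), 0.00 in tumour-bearing WT (exact permutation p = 0.997) and 0.08 in Stat3-deleted livers (exact permutation p = 0.761; n = 6 livers each, log2 CPM). These are 3 of 21 within-group correlations of Etnppl or Lpin1 with each other and with Saa1, Fkbp5 and Angptl4, of which 0 passed after Benjamini-Hochberg adjustment and 2 had an unadjusted p under 0.05. The smallest two-sided p that 6 livers allow is 0.00278.

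The first of the 2 was Etnppl with Saa1 in tumour-bearing WT livers. Saa1 there was at 7260, 5490, 15600, 48600, 11200 and 21700 CPM in replicate order, so the liver with the most Saa1, replicate 4, had the least Etnppl, and the 2 livers with the least Saa1 had the most Etnppl. Pearson r was -0.86 (two-sided exact permutation p = 0.0278, adjusted 0.292) and Spearman rho -0.89 (exact permutation p = 0.0333, adjusted 0.624). Without the 2 livers farthest from the median of Etnppl, r was -0.78 (n = 4). In control livers r was -0.52 (exact permutation p = 0.256) and in Stat3-deleted livers 0.02 (exact permutation p = 0.861). Each label-number run holds 3 livers of a group, too few for a value of its own.

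The second was Etnppl with Fkbp5 in control livers, with r = 0.95 (exact permutation p = 0.0222, adjusted 0.292), rho = 0.77 (exact permutation p = 0.103, adjusted 0.624) and r = 0.84 without the 2 farthest livers. In tumour-bearing WT livers r was -0.29 (exact permutation p = 0.681) and in Stat3-deleted livers -0.02 (exact permutation p = 0.972). Control replicate 2 held the most of both, 226 CPM of Etnppl and 35.0 CPM of Fkbp5. Lpin1 and Fkbp5 in tumour-bearing WT livers gave r = 0.93 (exact permutation p = 0.0528, adjusted 0.35) and rho = 0.77 (exact permutation p = 0.103, adjusted 0.624), with replicate 6 the highest in both, and r = 0.72 without the 2 farthest livers. In control livers that r was -0.29 (exact permutation p = 0.675), and -0.98 without the 2 farthest. In Stat3-deleted livers it was 0.71 (exact permutation p = 0.222), and -0.10 without the 2 farthest.

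Across all 18 livers, log2 CPM were centred within groups and the 6403 genes of at least 10 CPM were ranked by Pearson r with Etnppl. This is a description without a test, and since Etnppl varied most in tumour-bearing WT livers, that group weighs most in it. The 5 most alike were Wac (0.89), Gsta2 (0.84), Creg1 (0.84), Ces2a (0.83) and Gsta4 (0.82). Gsta2 and Gsta4 encode glutathione S-transferases and Ces2a a carboxylesterase. Gsta4 in tumour-bearing WT livers was at 80, 72.6, 22.9, 23.9, 75.3 and 25.6 CPM, with replicates 3 and 4 low as for Etnppl. The 3 least alike were Cxcl14 (-0.90), Slc13a3 (-0.85) and Eif6 (-0.83). Cxcl14, a chemokine, was at 10.8, 7.91, 70.3, 135, 17.9 and 95.3 CPM in tumour-bearing WT livers. It was lowest in replicates 1 and 2, which had the most Etnppl, and highest in replicate 4, which had the least. Its r was -0.96 without replicate 6.

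For Lpin1 the 5 most alike were Mfsd2a (0.90), St3gal5 (0.88), Pptc7 (0.87), Nlrp12 (0.87) and Klf9 (0.86). Without tumour-bearing WT replicate 6 these were 0.79, 0.62, 0.61, 0.64 and 0.63, and Mfsd2a held rank 4 while the others ranked 43 to 61. Mfsd2a encodes a carrier that brings lysophosphatidylcholine into cells, and so belongs to phospholipid supply although it was in none of the gene lists. It was at 17, 28.9, 3.97, 3.25, 19.2 and 32.0 CPM in control livers. In tumour-bearing WT livers it was at 18.4, 7.77, 18.4, 9.58, 1.92 and 260 CPM, and in Stat3-deleted livers at 39.8, 128, 110, 124, 87.6 and 146 CPM. As for Lpin1, all Stat3-deleted livers lay above all controls and above every tumour-bearing WT liver but replicate 6. The least alike was Tnfaip2 (-0.89, and -0.85 without replicate 6), followed by Anks4b (-0.87, and -0.65) and Mrpl45 (-0.85, and -0.74).

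Lipin 1 is known to respond to fasting signals and glucocorticoids, so lists of such genes and of clock genes were read in the same livers. Of 14 tested glucocorticoid-responsive genes, 3 rose and 0 fell in tumour-bearing WT against control livers, beside 1.76% and 0.49% of all tested genes. In Stat3-deleted against tumour-bearing WT livers 2 rose and 3 fell, beside 2.89% and 3.23%. In Stat3-deleted against control livers 2 rose and 1 fell, beside 2.19% and 2.66%. Without tumour-bearing WT replicate 6 the last 2 counts were 5 and 3, and 4 and 1, while the shares called over all genes also grew, as given above. The 3 that rose in tumour-bearing WT against control livers were the metallothioneins Mt1 and Mt2 and the acute-phase gene Lcn2. Their log2 fold changes were 3.96, 4.27 and 5.94. The other 11, with Fkbp5, Tsc22d3 and Zbtb16 among them, were not called in that comparison. In Stat3-deleted against tumour-bearing WT livers Lcn2 fell by 7.08 on the log2 scale (adjusted p = 4.15e-08, edgeR), from 98.2 to 747 CPM in tumour-bearing WT livers to 0.776 to 7.35 CPM. The others that fell there were Gadd45a, by 2.24 (lost in 10 of 18 fits with 1 library left out, with library totals alone and with no filter), and Nr3c1, by 0.62 (lost in 4 of 18 and with library totals alone). Tsc22d3, a glucocorticoid-induced leucine zipper gene, rose by 0.95 (adjusted p = 0.0125, edgeR). Zbtb16, a transcription factor gene induced by glucocorticoids, rose in Stat3-deleted livers by 1.79 against tumour-bearing WT (adjusted p = 0.00109, edgeR) and by 1.52 against control livers (adjusted p = 0.00923, edgeR), with no overlap between groups either time. Fkbp5 was at 14.9 ± 10.0 CPM in control and 65.6 ± 16.4 CPM in Stat3-deleted livers (mean ± SD, n = 6), a log2 rise of 2.13 (adjusted p = 0.0297, edgeR) that was lost in 8 of 18 fits with 1 library left out. Nr3c1, the glucocorticoid receptor gene, fell by 0.76 against control livers (adjusted p = 0.00914, edgeR), with no overlap between the 2 groups.

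Of 17 tested fasting and PPARα target genes, edgeR called 0 in tumour-bearing WT against control livers, where 3 had an unadjusted p under 0.05 and DESeq2 called 1 lower. In Stat3-deleted against tumour-bearing WT livers 4 rose and 1 fell, and 10 rose and 1 fell without tumour-bearing WT replicate 6. Leaving that liver out also raised the share of all tested genes called, from 2.89% higher and 3.23% lower to 4.18% and 3.86%. Acot1, an acyl-CoA thioesterase, rose by 2.00 (adjusted p = 0.000604, edgeR) and Ppargc1a, which encodes PGC-1α, by 1.498 (adjusted p = 0.00596, edgeR). The groups did not overlap for Acot1 and overlapped for Ppargc1a, although all 6 Stat3-deleted livers were above the tumour-bearing WT mean of log2 CPM. The rise of Cyp4a14 and the fall of Irs2 were lost in 15 and 11 of 18 fits with 1 library left out, and in 1 and 3 of the other settings. Against control livers 0 rose and 1 fell, Irs2, an insulin receptor substrate, by 2.19 on the log2 scale (adjusted p = 0.00763, edgeR). Of 16 tested clock genes, 0 were called in tumour-bearing WT against control livers by edgeR or DESeq2, with 2 at an unadjusted p under 0.05. In Stat3-deleted against tumour-bearing WT livers Nr1d1, Nr1d2 and Tef rose, by 1.14, 0.77 and 0.95 on the log2 scale, and 0 fell. Over all tested genes 2.89% were called higher and 3.23% lower there. Without tumour-bearing WT replicate 6, 4 of 15 tested clock genes rose and 0 fell, beside 4.18% and 3.86% of all tested genes. Against control livers 2 rose and 2 fell, where 2.19% of all tested genes were called higher and 2.66% lower. The calls of Tef, which rose by 1.06, and Clock, which fell by 0.71, held with each library left out. The rise of Nr1d2, by 0.52, was lost in 12 of 18 such fits, with library totals alone and with no filter. The fall of Arntl, by 1.25, was lost in 11 of 18 and with no filter. The time of collection is not in the labels, and the part of feeding, stress hormones or time of day in the lipin levels was not tested.

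**Figure D4:**
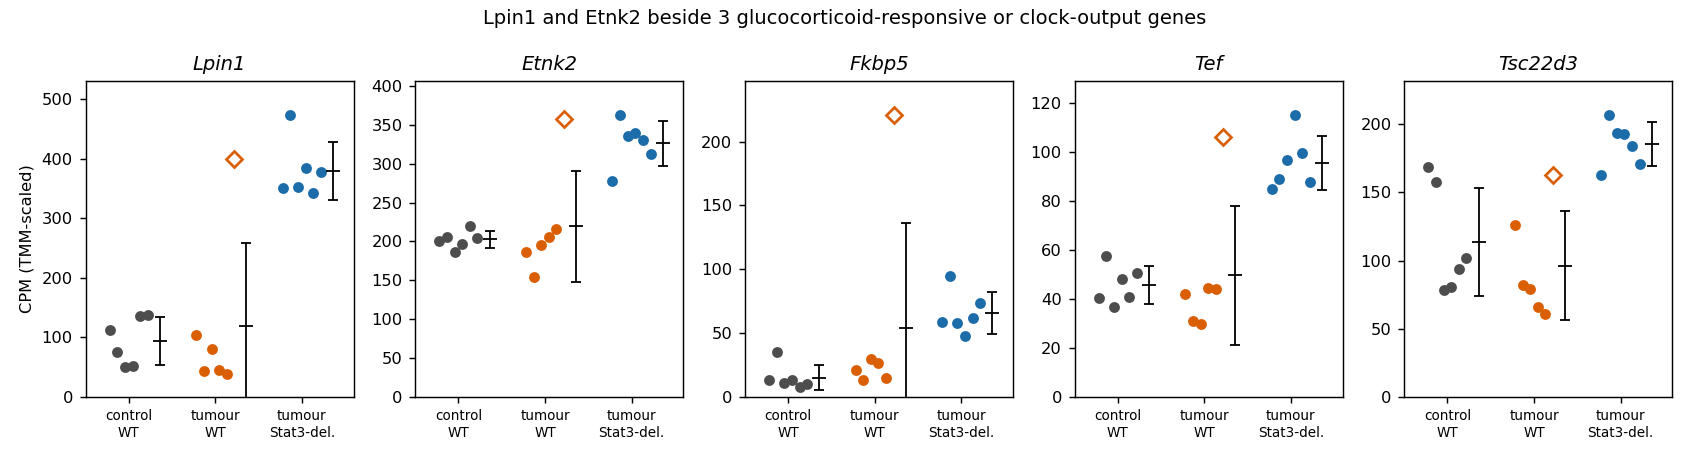
CPM of Lpin1 and Etnk2 beside the glucocorticoid-responsive genes Fkbp5 and Tsc22d3 and the clock output gene Tef (y axes, from 0) in each liver, by group (x axis), with mean ± SD (n = 6) cut at 0. The open diamond, replicate 6 of the tumour-bearing WT group, holds 400 CPM of Lpin1, 358 of Etnk2, 221 of Fkbp5 and 106 of Tef, above the other 5 livers of its group in all 5 panels.

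The 10 lists of phospholipid metabolism held 94 other genes, of which 78 were tested. In tumour-bearing WT against control livers 1 rose and 1 fell, with a median log2 fold change of 0.11 beside 0.00 for all tested genes. In Stat3-deleted against tumour-bearing WT livers 6 rose and 3 fell, with a median of 0.00 beside -0.03. In Stat3-deleted against control livers 3 rose and 2 fell, with a median of 0.09 beside -0.01. The shares over all tested genes were, in the same order, 1.76% higher and 0.49% lower, 2.89% and 3.23%, and 2.19% and 2.66%. At an unadjusted p under 0.05 there were 17, 25 and 22 of the 78. Without tumour-bearing WT replicate 6 (79 tested) the counts were 1 and 0, 9 and 3, and 8 and 5, beside 1.43% and 0.382%, 4.18% and 3.86%, and 3.18% and 3.77% of all genes tested.

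In the ethanolamine branch 3 other genes were tested. Etnk1, the second ethanolamine kinase, fell from a mean of 82.4 CPM in tumour-bearing WT livers to 49.5 CPM in Stat3-deleted livers. The log2 fold change was -0.74 (SE 0.19, adjusted p = 0.023, edgeR). All 6 Stat3-deleted livers were below the tumour-bearing WT mean of log2 CPM, but the groups overlapped, at 34.7 to 69.1 and 65.6 to 99.2 CPM. The call was lost in 5 of 18 fits with 1 library left out and with library totals alone. Its direction in that comparison was the opposite of that of Etnk2. In the choline branch 5 others were tested and 0 were called in any comparison by edgeR or DESeq2, with 1, 1 and 0 at an unadjusted p under 0.05; voom called 1 higher in Stat3-deleted against tumour-bearing WT livers.

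Of 11 other genes of methylation and methyl donor supply, Sardh, the sarcosine dehydrogenase, rose by 0.57 in Stat3-deleted against tumour-bearing WT livers (adjusted p = 0.0435, edgeR), a call lost in 9 of 18 fits with 1 library left out, with no filter and with the 2 groups alone. Mat2a, a methionine adenosyltransferase, rose by 0.48 in Stat3-deleted against control livers (adjusted p = 0.0285, edgeR) and was lost in 5 of 18 and with library totals alone. The groups of that comparison overlapped for Sardh and did not for Mat2a. In all, 0 of the 11 were called in tumour-bearing WT against control livers by edgeR or DESeq2, with 4 at an unadjusted p under 0.05.

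Of 13 others that make or dephosphorylate phosphatidate, Agpat6, now named Gpat4, which starts glycerolipid synthesis, rose by 0.77 in Stat3-deleted against tumour-bearing WT livers (adjusted p = 0.0283, edgeR), lost in 7 of 18 fits. Dgat2, which turns diacylglycerol into triacylglycerol, was at 190, 179, 156, 167, 194 and 267 CPM in tumour-bearing WT livers and at 295, 282, 292, 247, 311 and 308 CPM in Stat3-deleted livers. It rose by 0.59 (SE 0.13, adjusted p = 0.006, edgeR), a call that no left-out library ended, and the groups overlapped only through tumour-bearing WT replicate 6 and Stat3-deleted replicate 4.

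Lpgat1, an acyltransferase for lysophospholipids, was highest where Etnppl was lowest, in the tumour-bearing WT group. It was at 145, 171, 142, 134, 158 and 183 CPM in control livers, 246, 217, 277, 248, 221 and 380 CPM in tumour-bearing WT livers and 124, 111, 111, 109, 84.0 and 148 CPM in Stat3-deleted livers. Every tumour-bearing WT liver lay above every liver of the other groups. Lpgat1 rose by 0.77 in tumour-bearing WT against control livers (SE 0.15, adjusted p = 0.00594, edgeR) and fell by 1.21 in Stat3-deleted against tumour-bearing WT livers (SE 0.15, adjusted p = 2.11e-05, edgeR). The calls of Lpgat1 held with each single library left out. It was the only one of the 3 other remodelling genes tested that was called.

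Among 18 tested phospholipases and glycerophosphodiesterases, Pla2g6, a calcium-independent phospholipase A2, was also lowest in tumour-bearing WT livers. It was at 28.8, 27.2, 32.5, 25.9, 41.5 and 45.2 CPM in control livers, 16.7, 12.1, 13.5, 15.4, 35.4 and 14.8 CPM in tumour-bearing WT livers and 37.7, 35.6, 42.3, 33.5, 35.6 and 30 CPM in Stat3-deleted livers. Replicate 5 of the tumour-bearing WT group was the 1 liver of its group inside the range of the others. Pla2g6 fell by 0.90 in tumour-bearing WT against control livers (SE 0.22, adjusted p = 0.0272, edgeR), a call lost in 5 of 18 fits, without control replicate 5 or 6 or tumour-bearing WT replicate 3, 4 or 6, and with the 2 groups alone. It rose by 0.99 in Stat3-deleted against tumour-bearing WT livers (SE 0.22, adjusted p = 0.00649, edgeR), a call that no left-out library ended.

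The secreted phospholipase gene Pla2g12a rose in Stat3-deleted livers by 1.03 against control livers (adjusted p = 0.0161, edgeR) and by 0.90 against tumour-bearing WT livers (adjusted p = 0.0226, edgeR), the second lost in 5 of 18 fits. As for Lpin1, tumour-bearing WT replicate 6, at 54.9 CPM, was above the 16.6 to 24.1 CPM of the rest of its group. Its relative Pla2g12b rose by 0.45 against control livers (adjusted p = 0.0212, edgeR; lost in 2 of 18 fits and with library totals alone). Gdpd1, a glycerophosphodiester phosphodiesterase, was scarce, at means of 2.18 CPM in control livers, 2.48 CPM in tumour-bearing WT livers and 0.586 CPM in Stat3-deleted livers. It fell in Stat3-deleted livers by 1.86 against control and by 2.05 against tumour-bearing WT livers (adjusted p = 0.00976 and 0.00206, edgeR), with no overlap between groups and 2 to 8 counts in each Stat3-deleted library. With so few counts there, Gdpd1 passed the expression filter only through the WT livers, so its calls and the lack of overlap are a description.

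Among 6 transfer and export genes, Pctp, the phosphatidylcholine transfer protein, rose by 0.59 in Stat3-deleted against tumour-bearing WT livers (adjusted p = 0.0211, edgeR; lost in 3 of 18 fits). None of the 12 tested genes of phosphatidylserine, phosphatidylinositol and cardiolipin synthesis was called by edgeR in any comparison, with 2, 1 and 2 at an unadjusted p under 0.05. The 4 tested ether lipid genes also held no call, with 1 at an unadjusted p under 0.05 in each comparison.

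**Figure D5:**
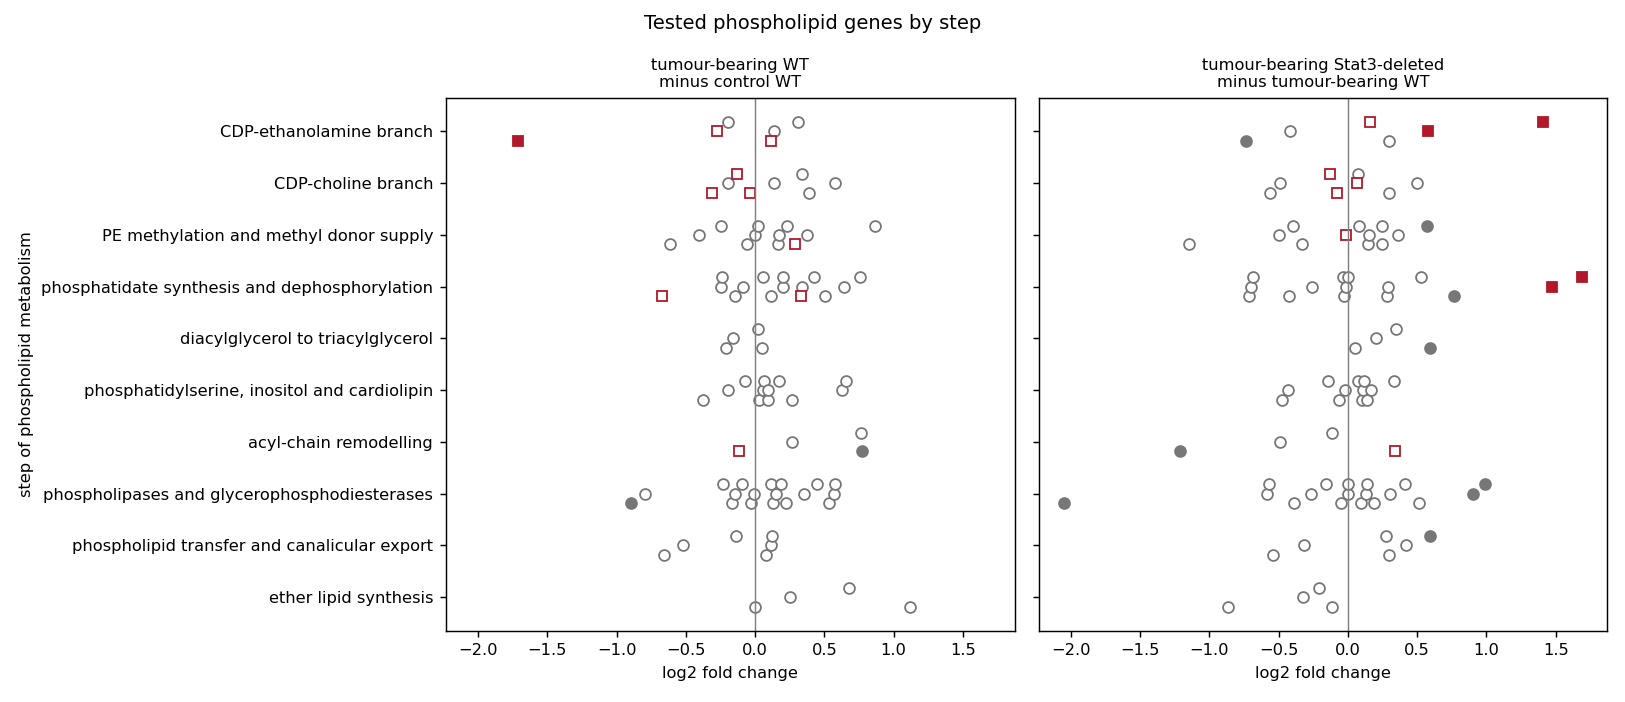
Log2 fold change (x axis) of every tested phospholipid gene by step (y axis), in 2 of the 3 comparisons. Squares are the 10 genes of the opening and circles the 78 others, filled where called by edgeR at an adjusted p under 0.05. Etnppl is the filled square at -1.71 in the left panel, and the filled circle at -2.05 in the right panel is Gdpd1.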

How the data were processed

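Per the labels, liver RNA was isolated with RNeasy columns from TRIzol and libraries were made with the Lexogen Quantseq 3′ FWD kit. The authors deposited raw counts, 1 column per library. STAR and mm10 are named in the submitters' processing notes; which version, counting tool, annotation or strand setting was used is not given in the sources used here. Of 24421 symbols, 27 rows turned into date numbers (0.103 to 0.166% of counts) were left out. All 18 columns were matched to samples by the numbers in the labels. TMM factors, filterByExpr (11218 genes) and a quasi-likelihood fit over all 18 libraries (edgeR 4.0.16, R 4.3.3) were followed by Benjamini-Hochberg adjustment over the 11218 genes, threshold 0.05; all 10 genes were tested. The common biological coefficient of variation was 0.281. The test gives no SE, so each SE was derived from the log2 fold change and the F statistic, and the intervals from it with t quantiles. CPM use TMM-scaled totals. Correlations used log2 CPM (prior count 2) and all 720 pairings.

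The 10 genes, the lists and the tests were chosen with earlier results of these data known. Named genes are the 10, up to 4 called genes per list with the smallest p, for Etnppl and Lpin1 the 5 most and 3 least alike, and Stat3 and Saa1. Alternatives were RLE size factors, library totals alone, DESeq2 1.42.0, limma 3.58.1 voom with quality weights, no and a stricter filter, 2 groups alone, blocks for the replicate number or for the run of label numbers, and fits without each library in turn. Fits within 1 label-number run, and likeness and correlations without tumour-bearing WT replicate 6, were added after seeing the data. The labels do not state that replicates are separate animals, so p-values measure only the spread between these samples. On simulated data, genes to change were drawn from those with a mean over 5 CPM, and each gene had 1 spread for all groups. Recovery in scarcer genes, or with unequal spreads, was not tested. Of 100 genes changed 2-fold, 81, 70 and 75 were recovered in the 3 comparisons in the order of the report. Of 100 changed 4-fold, 100, 100 and 100 were recovered. In these runs of 11218 genes, 5, 11 and 8 unchanged genes were called. Positions came from RefSeq and overlaps from GENCODE on GRCm38.p6, the assembly of mm10. One called gene of the lists is not reported here.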

Additional observations from a re-analysis of the deposited data

Results flagged for a closer look

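In groups of 6 livers, the gap of the highest or lowest liver to its neighbour was compared with the range of the group on the log2 scale, for 16 genes in 3 groups (48 groups). Such a gap passed the 95% limit in 4, and chance alone passes it in about 1 in 20 groups. Lpin1 in Stat3-deleted replicate 2 was at 474 CPM, with the next liver at 385 CPM. Fkbp5 in control replicate 2 was at 35.0 CPM, with the next at 13 CPM; that liver also had the most Etnppl, 226 CPM. Fkbp5 in tumour-bearing WT replicate 6 was at 221 CPM, with the next at 29.6 CPM, and Tef in the same liver at 106 CPM, with the next at 44.2 CPM. The same liver was the highest of its group for Lpin1, at 400 CPM, Etnk2, at 358 CPM, and Pemt, at 473 CPM, which did not pass the limit.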

How the results depend on the processing

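Of the fold changes of the 10 genes under all alternatives, 765 kept direction and stayed called or uncalled, most of them uncalled in the main fit. Of the rest, 13 lost the call, 5 gained it and 24 turned sign. The other 3, Lpin1 by DESeq2, kept direction without an adjusted p. The calls of Etnppl held with each library left out and in every other setting except the lower number run alone, where that against control livers was lost. Those gained were all Lpin2 in tumour-bearing WT against control livers: -0.860 with library totals alone, -0.677 by DESeq2, -0.709 by voom, and without tumour-bearing WT replicate 1 or 6. In that comparison the sign turned for Etnk2 (-0.119 with library totals alone, -0.026 by voom, -0.159 in the lower number run), Lpin1 (-0.153 by voom, -0.026 with the replicate block, -0.080 in the lower run), Chpt1 (0.097) and Pemt (-0.021) in the lower run, and Chka (0.162), Pcyt1a (0.050) and Lpcat3 (0.056) in the higher run. With libraries left out it ran from -0.088 to 0.181 for Etnk2, from -0.613 to 0.512 for Lpin1 and from -0.090 to 0.004 for Pcyt1a. In Stat3-deleted against tumour-bearing WT livers Pemt turned to 0.085 with library totals alone and 0.090 by voom and reached 0.124 with libraries left out, where Chka ran from -0.049 to 0.192. Library totals alone moved the median of all genes to -0.188 in the first and -0.130 in the last comparison. Called genes then went from 197 higher and 55 lower to 115 and 177 in the first, from 324 and 362 to 424 and 270 in the second, and from 246 and 298 to 139 and 372 in the last.

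Of the 10 genes, 1 was called in the first comparison, but 2 with library totals alone, DESeq2 or voom and 1 to 2 with libraries left out (2 without tumour-bearing WT replicate 1 or 6). In the second it was 4, and 2 to 4 with libraries left out (2 without replicate 2, 3 or 4 of the tumour-bearing WT or replicate 2 of the Stat3-deleted group). In the last it was 3, and 2 to 3. Of the other phospholipid genes, 2 were called in the first, 6 with library totals alone or DESeq2, 1 with the 2 groups alone, and 1 to 6 with libraries left out (6 without tumour-bearing WT replicate 5, 4 without its replicate 1 or 2, 1 without its replicate 3, 4 or 6 or control replicate 5). In the second 9 were called, and 4 to 12 with libraries left out (4 without tumour-bearing WT replicate 3, 5 without its replicate 1 or 2 or Stat3-deleted replicate 3). In the last 5 were called, 10 by DESeq2, 16 by voom, 12 with the 2 groups alone, and 2 to 13 with libraries left out (13 without tumour-bearing WT replicate 6, 2 without control replicate 4 or Stat3-deleted replicate 5, 3 without Stat3-deleted replicate 2 or 3). Calls over all genes moved too. In the first they went from 197 higher and 55 lower to 309 and 153 by DESeq2, 106 and 22 with the 2 groups alone and 239 and 108 without tumour-bearing WT replicate 5. In the second they went from 324 and 362 to 213 and 286 without tumour-bearing WT replicate 3 and 471 and 435 without replicate 6. In the last they went from 246 and 298 to 396 and 464 by DESeq2, 607 and 711 by voom, 413 and 481 with the 2 groups alone, 358 and 425 without tumour-bearing WT replicate 6 and 126 and 169 without control replicate 4. The cause of these shifts was not tested.

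Same-numbered livers of the 2 WT groups mostly carry adjacent label numbers, and whether they were paired is not stated in the labels. Same-numbered livers correlated by -0.096 to 0.309, -0.082 to 0.212 and -0.126 to 0.167 in the 3 comparisons. Of 6 livers, 1, 1 and 0 correlated best with their own number. Low values of this kind cannot show that livers were not paired. With the replicate block the 10 genes gave 1, 4 and 3 calls, and the other phospholipid genes 2, 9 and 8.

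Among correlations, the sign turned with library totals alone for Etnppl with Fkbp5 in Stat3-deleted (0.03) and Lpin1 with Saa1 in tumour-bearing WT livers (-0.05). Without tumour-bearing WT replicate 6 it turned for Etnppl with Lpin1 (0.14) and Lpin1 with Saa1 (-0.22) in that group. Without the 2 farthest livers it turned for Etnppl with Lpin1 in control (0.01) and Stat3-deleted livers (-0.23), Etnppl with Angptl4 in control (0.07) and Stat3-deleted livers (-0.18), Lpin1 with Fkbp5 in Stat3-deleted livers (-0.10) and Lpin1 with Angptl4 in tumour-bearing WT livers (-0.43). On simulated data 70 to 81 of 100 changes of 2-fold were recovered with 6 livers a group, so smaller changes can be missed. The scarcest genes were not among those changed there.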

Other observations

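Among pairs of the 10 genes, with log2 CPM centred within groups over 18 livers and no test, the most alike were Etnk2 and Pemt (r = 0.76, and 0.55 without tumour-bearing WT replicate 6) and Etnk2 and Lpin1 (r = 0.74, and 0.22). Pcyt1a and Lpcat3 followed at 0.63, and 0.62 without that liver. The least alike were Chpt1 and Pemt, at -0.63, and -0.82 without that liver. Chpt1 and Pemt end the routes to phosphatidylcholine from choline and from phosphatidylethanolamine. In control livers the most Chpt1, 75.0 CPM in replicate 4, went with the least Pemt, 222 CPM, and in tumour-bearing WT livers replicates 1 and 2, with 60.2 and 61.8 CPM of Chpt1, had the least Pemt, 248 and 256 CPM.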
